A study of Mus musculus with 110 samples.

Results

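The genes described here are 10 members of the growth hormone and insulin-like growth factor axis: Igf1, its circulating partner Igfals, the binding protein genes Igfbp1 to Igfbp6, the growth hormone receptor gene Ghr and its feedback inhibitor Socs2. They were chosen by name and matched by Ensembl identifier to 10 of the 56884 gene rows in each count table, with gene symbols taken from the GENCODE M21 annotation. All 10 were tested in liver and in epididymal white adipose tissue (eWAT). In interscapular brown adipose tissue (iBAT) and inguinal white adipose tissue (iWAT), 9 were tested, since Igfbp1 had too few counts there.

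Polyadenylated RNA of 4 tissues was sequenced from 28 male C57BL/6N mice in 4 groups of 7, all single-housed and 16 weeks old at sacrifice. All mice ate for 7 days a diet with 0% cysteine, which held 0.86% methionine in the Ctrl groups and 0.12% in the MetR (methionine-restricted) groups, so the control diet was itself free of cysteine. Ctrl_RT and MetR_RT stayed at 22 °C throughout, while Ctrl_CE and MetR_CE spent a further 24 h at 4 °C (CE, cold exposure) after the 7 days. The cold mice were thus killed 1 day later than the others, with up to 1 more day on their diet. That day and the cold cannot be told apart. Of 110 libraries, 105 were analysed (liver 28, iBAT 26, iWAT 27, eWAT 24). The study left out 3 Ctrl_RT libraries and 1 MetR_RT library of eWAT and 1 Ctrl_CE library of iBAT, and so they were left out here, with 4 Ctrl_RT libraries of eWAT remaining. Which ones was worked out from the mean normalised counts in its source data. In 3 iBAT libraries the treatment tag disagreed with the title, and the title set the group. The comparisons ask how dietary methionine, cold and both together change each gene in each tissue.

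Growth hormone from the pituitary binds its receptor GHR and, through the kinase JAK2 and the transcription factor STAT5, switches on Igf1, Igfals and Socs2. IGF1 travels in blood mostly in a ternary complex with IGFBP3 and the acid-labile subunit that Igfals encodes, while the other binding proteins form smaller complexes and act locally. In liver Igfbp1 is known as a gene that insulin represses and FOXO1 activates, and hepatic growth hormone signaling differs between the sexes in its timing. In adipose tissue most Igfbp5 and Igfbp6 mRNA is known from stromal cells rather than adipocytes.

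The libraries held 6987895 to 33444374 counts in liver, 12672686 to 31232349 in iBAT, 16607493 to 33141066 in iWAT and 22625093 to 33372110 in eWAT. Most markers looked at matched the labelled tissues, but skeletal muscle markers were also found in fat libraries. The hepatocyte gene Alb reached a median of 45290.0 CPM (counts scaled to a fixed library size) in Ctrl_RT liver and at most 38.2 CPM in the Ctrl_RT libraries of any fat depot. Cyp2e1, of the same list of 5 hepatocyte markers, did not separate liver from eWAT, with Ctrl_RT medians of 4387 and 4429 CPM. The summed level of 5 brown adipocyte markers was 8201 to 10930.0 CPM in Ctrl_RT iBAT. It was at most 758 CPM in Ctrl_RT iWAT and eWAT, and at most 768 in Ctrl_RT liver, where 2 of the 5 had counts. CPM below are normalised within a tissue by the trimmed mean of M values. Adjusted p-values are Benjamini-Hochberg values of edgeR's quasi-likelihood test over all genes of a tissue, and a gene was called when its adjusted p was under 0.05 and it changed at least 1.5-fold. In bulk tissue, fewer cells of a type and less RNA per cell cannot be told apart.

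On GRCm38 the binding protein genes lie partly in tail-to-tail pairs. Igfbp1 (chromosome 11, 7197782 to 7202546, plus strand) and Igfbp3 (7206086 to 7213923, minus strand) are 3539 bases apart, and Igfbp2 (chromosome 1, 72824503 to 72852474, plus strand) and Igfbp5 (72857932 to 72874884, minus strand) are 5457 bases apart. Igf1 spans 87858265 to 87937042 on chromosome 10 and overlaps the antisense gene Igf1os, so that without a stated strand setting reads of the pair cannot be told apart. Igfals lies at 24865997 to 24882010 on chromosome 17, Igfbp4 at 99041244 to 99054392 on chromosome 11, Igfbp6 at 102144362 to 102149511 and Ghr at 3317760 to 3583492 on chromosome 15, and Socs2 at 95385362 to 95417180 on chromosome 10.

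RefSeq promoter windows of 250 bases (GRCm38.p6) were at hand for 9 members in 13 windows, and 3 of them are shown because they hold a match to the factor named above for that gene. Both strands were searched for AAACAA, the core recognised by FOXO proteins, TTCNNNGAA, the STAT5 consensus, TGACG, the core of a cAMP response element, and TGATGNAA, the composite site of ATF4. Among all 32851 promoter windows, 18.3% held AAACAA, 7.02% TTCNNNGAA, 17.8% TGACG and 3.45% TGATGNAA. Igfbp1 held 1 AAACAA, from 106 to 101 bases before the transcription start. Igfals held TTCNNNGAA in 2 of its 3 windows, from 236 to 228 bases before the start of one and from 58 to 50 bases before the start of the next, which also held TGACG on the minus strand from 20 to 16 bases before. Capitals mark the matched bases.
Igfbp1 chr11:7197537-7197786 plus strand: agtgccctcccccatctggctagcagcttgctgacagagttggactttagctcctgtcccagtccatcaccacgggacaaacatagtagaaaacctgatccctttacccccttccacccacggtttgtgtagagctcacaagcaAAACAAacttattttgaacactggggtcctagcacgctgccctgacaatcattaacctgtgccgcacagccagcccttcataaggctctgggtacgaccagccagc
Igfals chr17:24877594-24877843 plus strand: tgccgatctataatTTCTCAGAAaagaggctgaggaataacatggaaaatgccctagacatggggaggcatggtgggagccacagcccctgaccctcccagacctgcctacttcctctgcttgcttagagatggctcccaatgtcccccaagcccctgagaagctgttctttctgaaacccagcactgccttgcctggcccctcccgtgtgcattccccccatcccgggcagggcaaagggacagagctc
Igfals chr17:24877981-24878230 plus strand: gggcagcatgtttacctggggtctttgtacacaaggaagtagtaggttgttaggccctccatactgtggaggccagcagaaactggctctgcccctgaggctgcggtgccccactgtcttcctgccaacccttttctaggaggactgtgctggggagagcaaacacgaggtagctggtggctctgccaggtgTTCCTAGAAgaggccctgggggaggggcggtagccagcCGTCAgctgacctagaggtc
The other members' windows held none of the 4 motifs except 1 AAACAA from 49 to 44 bases before an Igfbp2 start.

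At Ctrl_RT the members divided by tissue. On a scale normalised over all libraries together, Igf1 averaged 527 ± 61.2 CPM in liver (SD, n = 7), 220.4 ± 14.8 in eWAT (n = 4), 177 ± 43.5 in iWAT (n = 7) and 14.9 ± 3.97 for iBAT (n = 6), and every pair of tissues differed except eWAT and iWAT (log2 difference 0.31, SE 0.16, adjusted p = 0.14). Igfals, the acid-labile subunit, averaged 166 ± 27.9 CPM in liver against 34.8 ± 9.24 in eWAT, 33.96 ± 12.3 in iWAT and 8.55 ± 1.71 in iBAT, with the same neighbours not separated (log2 difference 0.04, SE 0.23, adjusted p = 0.963). Ghr was ordered otherwise. eWAT led with 1272 ± 231 CPM, followed by iWAT with 761 ± 156, liver with 603 ± 68.3 and iBAT with 224 ± 19.8, where iWAT and liver differed by less than 1.5-fold (log2 difference 0.34, SE 0.10, adjusted p = 0.00383). With the left-out libraries restored, eWAT and iWAT also differed by less than 1.5-fold for Ghr (log2 difference 0.48, adjusted p = 0.00113). Liver thus stood first for the ligand and behind both white depots for the receptor. Socs2 averaged 40.9 ± 32.3 CPM in liver, 18.2 ± 7.09 in iWAT, 14.8 ± 4.49 in eWAT and 8.06 ± 1.34 in iBAT, with a spread in liver nearly as large as its mean.

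The binding proteins were split more sharply. Igfbp2 averaged 485 ± 167 CPM in liver and 4.29 ± 2.14 in eWAT, and stayed at 0.390 CPM or less in every Ctrl_RT library of iBAT and iWAT. Igfbp1 averaged 92.0 ± 74.1 CPM in liver, was at 0 counts in all 7 Ctrl_RT libraries of iWAT, and reached its eWAT mean through 1 library with 120 counts. In contrast, Igfbp6 averaged 255.4 ± 60.6 CPM in iWAT, 114 ± 56.1 in eWAT, 16.1 ± 5.45 in iBAT and 1.03 ± 0.80 in liver, and Igfbp5 went from 787 ± 240.0 CPM in iWAT through 211 ± 38.1 in eWAT and 94.0 ± 11.4 in iBAT to 4.31 ± 1.22 in liver. Igfbp4 was highest in liver at 2853 ± 142 CPM, against 411 ± 56.9 in eWAT, 381 ± 76.9 in iWAT and 42.4 ± 9.88 in iBAT. Igfbp3 was called different in none of the 6 tissue pairs, its means lying between 15.5 and 23.1 CPM. It had 1 pair under an adjusted p of 0.05, with iBAT above liver (log2 difference 0.51, SE 0.23, adjusted p = 0.0476), and by limma-voom with the mouse as a block that pair was called (0.61, adjusted p = 0.0468). Over the 10 genes, 46 of 60 comparisons between tissues were called, where 43.5% of all genes were called between iBAT and liver, 45.8% between iWAT and liver, 44.9% between eWAT and liver, 33.3% between iWAT and iBAT, 35.5% between eWAT and iBAT and 16% between eWAT and iWAT.

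Per kilobase of exon, which allows genes to be set beside each other, Igfbp4 made up 67.2% ± 8.004 of the summed level of the 6 binding proteins in Ctrl_RT liver (SD, n = 7), followed by Igfbp2 with 26.4% ± 4.61 and Igfbp1 with 5.77% ± 4.19. In iWAT the leading member was Igfbp6 with 50.5% ± 1.87, ahead of Igfbp5 with 28.4% ± 3.31 and Igfbp4 with 19.6% ± 4.34. Ctrl_RT eWAT divided between Igfbp6 with 40.9% ± 11.9 and Igfbp4 with 40.5% ± 9.25 (n = 4), and iBAT among Igfbp5 with 33.6% ± 5.56, Igfbp6 with 30.2% ± 6.37, Igfbp4 with 20.2% ± 2.86 and Igfbp3 with 15.9% ± 3.55 (n = 6). The summed level was 779 ± 118 CPM per kilobase in liver, 519 ± 111 in iWAT, 311 ± 72.3 in eWAT and 42.2 ± 5.53 in iBAT. In iBAT the mix turned towards Igfbp3, whose share rose from 15.9% at Ctrl_RT to 26.5% ± 3.84 in MetR_RT, 42.4% ± 8.64 in Ctrl_CE and 52.6% ± 7.99 in MetR_CE. The lowest Ctrl_CE and MetR_CE libraries, at 32.4% and 37.9%, lay above the highest Ctrl_RT library at 20.9%. These shares are descriptions without a test, and a share can rise when other members fall.

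The number of members called, set beside the share of all genes called, differed by tissue. In liver, cold on the control diet called 4 of 10 (Igfbp1, Igfbp3 and Igfbp5 higher, Socs2 lower), where 11.9% of 22143 genes were called. MetR_RT called 0 of 10 in liver (all genes 6.91%) by edgeR and 0 by DESeq2, with 3 members at an unadjusted p under 0.05. MetR_CE called 1 in liver, Socs2 (13.5%). In iBAT, of 9 tested, Ctrl_CE called 4 (14.7%), MetR_RT 4, all lower (2.5%, with 1.97% called lower), and MetR_CE 6 (14.7%). In iWAT, of 9 tested, Ctrl_CE called 2 (15.9%), MetR_RT 3 (11.6%) and MetR_CE 6 (22.4%). The 3 of MetR_RT were Igfbp6, Socs2 and Igfbp2, and Igfbp2 held only a few counts per library in iWAT. DESeq2 called 2 there (Socs2 and Igfbp6). In eWAT, of 10 tested, Ctrl_CE called 2 (2.42%), MetR_RT 0 (0.115%) and MetR_CE 3 (1.3%), with 5 members at an unadjusted p under 0.05 for MetR_RT and 2 called there by DESeq2 (Igfbp3 and Igfbp5). Liver under MetR_CE, with 1 of 10, stood near the background. All 4 calls of MetR_RT in iBAT and 5 of the 6 calls of MetR_CE there were decreases. Because the 3 comparisons of a tissue share their Ctrl_RT libraries, calls that recur among them are not separate evidence.

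The direct comparisons gave fewer calls. Cold on top of the MetR diet (MetR_CE against MetR_RT) called Igfbp3 in iBAT (all genes 8.53%) and 0 members in liver (5.19%), iWAT (1.88%) and eWAT (0.112%), with 1, 4 and 4 members at an unadjusted p under 0.05 and 0, 2 and 1 called by DESeq2. The MetR diet in the cold (MetR_CE against Ctrl_CE) called Igfbp4 in iBAT (1.64%), Igfals in eWAT (4.35%) and 0 in liver (5.26%) and iWAT (2.27%), where 3 and 4 members had an unadjusted p under 0.05 and DESeq2 called 0 and 2. The interaction of diet and temperature was called for 0 members by edgeR in liver (1.06%), iBAT (0.372%), iWAT (1.65%) and eWAT (2.3%), with 3, 4, 3 and 4 members at an unadjusted p under 0.05. DESeq2 called an interaction for Igf1 in iBAT and for Igfbp3 and Igfals in eWAT.

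Changes were also compared between tissues in one fit of all 105 libraries, where a difference passed at an adjusted p under 0.05. Of the members' differences 31 passed, and 11 of them also passed in limma-voom with the mouse as a block, since the tissues came from the same animals. The other 20 did not. That fit changed the test as well as adding the block, and the effects of these cannot be told apart. Its consensus correlation between libraries of 1 mouse was 0.0328. Among all 32143 genes, the change of Ctrl_CE differed from liver for 15.7% in iBAT, 19% in iWAT and 11.3% in eWAT, that of MetR_RT for 4.46%, 12.6% and 3.52%, and that of MetR_CE for 14.7%, 20.4% and 9.26%. Against iBAT, iWAT differed for 12.9%, 6.09% and 15.4% of genes and eWAT for 7.11%, 0.121% and 9%, and eWAT differed from iWAT for 6.86%, 5.27% and 16%.

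**Figure D1:**
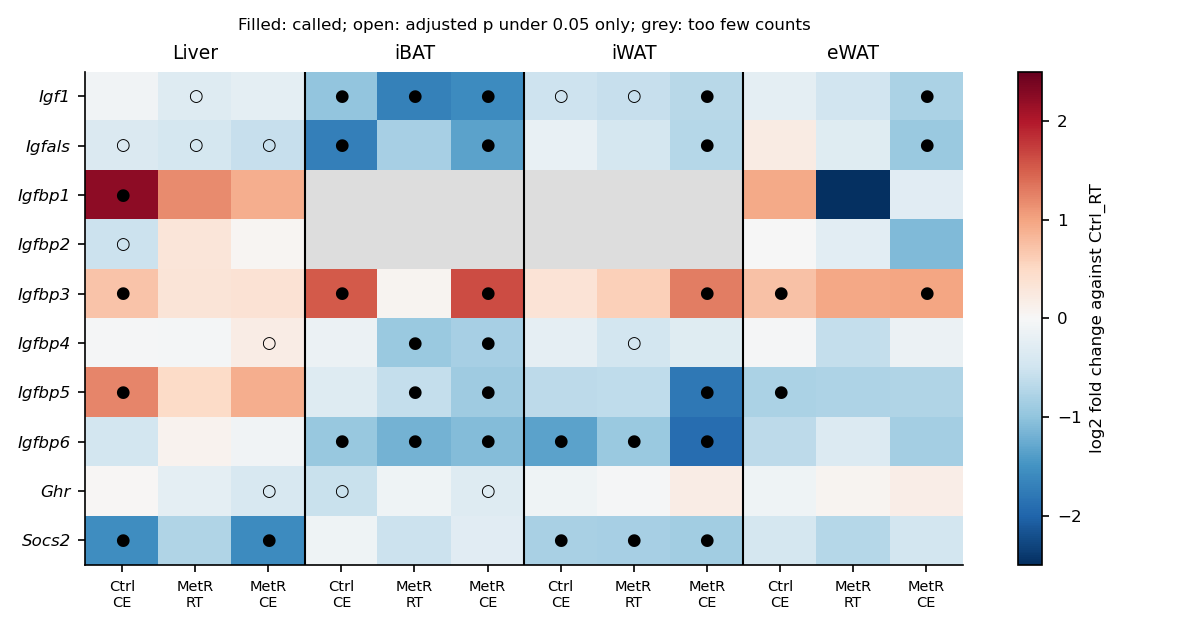
Log2 fold change of the 10 genes against Ctrl_RT in each tissue, as a colour scale that saturates at 2.5 in either direction, with filled circles for called changes and open circles for an adjusted p under 0.05 without a 1.5-fold change. Igfbp1 and Igfbp2 in iBAT and iWAT are left grey because their libraries held too few counts for a fold, and Igfbp3 is the only row that is positive in all 12 cells.

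Ghr, the receptor through which growth hormone acts, was called in none of its 12 comparisons with Ctrl_RT, although smaller shifts passed the adjusted p alone. In liver Ghr was at 426 to 538 CPM (median 500.3) in Ctrl_RT, 375 to 556 CPM (median 523) in Ctrl_CE, 315 to 485 CPM (median 399.9) in MetR_RT and 291.3 to 453 CPM (median 368) in MetR_CE. The MetR_CE libraries sat lowest, overlapping the Ctrl_RT libraries at their upper end, and the difference was under 1.5-fold (log2 fold change -0.39, SE 0.10, adjusted p = 0.00189). In iBAT the order was another one: 169 to 221 CPM (median 200.2) in Ctrl_RT and 115 to 151 CPM (median 141) in Ctrl_CE, so that cold placed all 6 libraries below the lowest Ctrl_RT library (15.6% of all genes did not overlap; log2 fold change -0.56, SE 0.07, adjusted p = 2.12e-07), still short of 1.5-fold. MetR_RT, at 177 to 197 CPM (median 187), left iBAT Ghr within the range of Ctrl_RT (log2 fold change -0.10, SE 0.07, adjusted p = 0.399). In iWAT and eWAT no comparison with Ctrl_RT gave an adjusted p below 0.309. The cold change differed between iBAT and liver (difference of log2 fold changes -0.64, SE 0.15, adjusted p = 0.00106; with the mouse as a block adjusted p = 0.0633). The MetR_CE change differed between iWAT and liver by 0.57 (SE 0.15, adjusted p = 0.0019) and between eWAT and liver by 0.54 (SE 0.16, adjusted p = 0.016), and these also passed with the mouse as a block. Of 6 such differences for Ghr, those 2 did.

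Igf1, the ligand, fell in all 3 fat depots and stayed under 1.5-fold in liver. The largest fold changes were those of brown fat. In iBAT, Igf1 was at 10.7 to 20.6 CPM (median 12.3) in Ctrl_RT, 4.98 to 11.02 CPM (median 6.16) in Ctrl_CE, 3.17 to 5.41 CPM (median 3.93) in MetR_RT and 3.31 to 6.497 CPM (median 3.68) in MetR_CE. The highest MetR_RT and MetR_CE libraries lay below the lowest Ctrl_RT library (2.78% and 15.5% of all genes did not overlap), whereas the highest Ctrl_CE library overlapped it. Cold lowered Igf1 there (log2 fold change -0.99, SE 0.20, adjusted p = 0.000196), and so did the MetR diet (log2 fold change -1.69, SE 0.20, adjusted p = 3.95e-06). Both together gave a value close to that of the diet alone (log2 fold change -1.58, SE 0.19, adjusted p = 2.02e-07). The interaction was positive and just missed the threshold (log2 fold change 1.10, SE 0.28, adjusted p = 0.0508), while DESeq2 called it (log2 1.06, adjusted p = 0.00963).

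In iWAT, Igf1 was at 119 to 279.1 CPM (median 198) in Ctrl_RT against 102 to 152 CPM (median 126) in MetR_CE, with the 7 Ctrl_RT libraries reaching down into the MetR_CE range. It was called lower in MetR_CE alone (log2 fold change -0.69, SE 0.14, adjusted p = 0.000206), while Ctrl_CE (log2 fold change -0.52, SE 0.13, adjusted p = 0.0029) and MetR_RT (log2 fold change -0.58, SE 0.13, adjusted p = 0.00182) missed the 1.5-fold cut. The 4 Ctrl_RT libraries of eWAT held 274.6, 275.3, 286.9 and 313 CPM of Igf1, and all 7 MetR_CE libraries, at 135 to 209 CPM (median 164), were below them (4.26% of all genes did not overlap; log2 fold change -0.78, SE 0.11, adjusted p = 0.000461). With the left-out libraries restored this call was lost (log2 fold change -0.53, adjusted p = 0.0318), 2 of the 3 restored Ctrl_RT libraries lying below the other 4. Against Ctrl_CE the MetR_CE libraries were lower by less than 1.5-fold (log2 fold change -0.54, SE 0.10, adjusted p = 0.0012). The MetR_RT libraries of eWAT, not called, also lay below the Ctrl_RT libraries used. On the scale of all libraries together they held 124 to 201 CPM of Igf1, against a lowest Ctrl_RT library of 211. In that comparison 1.9% of all genes did not overlap.

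In liver, the main source of circulating IGF1, Igf1 was at 353 to 479 CPM (median 424) in Ctrl_RT, 347 to 436 CPM (median 413) in Ctrl_CE, 228 to 391 CPM (median 352) in MetR_RT and 292.3 to 396 CPM (median 381) in MetR_CE. All 4 ranges overlapped, and the largest shift, in MetR_RT, was under 1.5-fold (log2 fold change -0.33, SE 0.10, adjusted p = 0.0154). Whether the fat depots moved more than liver was tested directly in the joint edgeR fit. Only iBAT differed from liver there, and no Igf1 change in iWAT or eWAT differed from that in liver at an adjusted p under 0.05. The Igf1 change in iBAT was below that in liver by 0.93 on the log2 scale for Ctrl_CE (SE 0.20, adjusted p = 0.000331), 1.38 for MetR_RT (SE 0.20, adjusted p = 7.49e-07) and 1.35 for MetR_CE (SE 0.20, adjusted p = 1.56e-07), and all 3 also passed with the mouse as a block. The MetR_RT change in iWAT exceeded that in iBAT by 1.10 (SE 0.20, adjusted p = 0.00013), likewise with the block. A further 4 differences of Igf1 between iBAT and iWAT or eWAT lost the call with the mouse as a block (adjusted p from 0.052 to 0.154).

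Igfals fell in the same direction as Igf1 in several tissues. In liver it was at 105 to 176 CPM (median 127) in Ctrl_RT, 88.98 to 124 CPM (median 101) in Ctrl_CE, 75.9 to 134 CPM (median 88.4) in MetR_RT and 73.9 to 99.0 CPM (median 89.99) in MetR_CE. All 7 MetR_CE libraries were below the lowest Ctrl_RT library, the only such case among the members in liver (12% of all genes did not overlap in this comparison), and yet the change was a hair under 1.5-fold (log2 fold change -0.58, SE 0.11, adjusted p = 0.000213). In iBAT, where the counts are low, Igfals was at 4.86 to 8.85 CPM (median 8.20) in Ctrl_RT and 1.58 to 3.42 CPM (median 2.22) in Ctrl_CE without overlap (log2 fold change -1.71, SE 0.31, adjusted p = 6.73e-05). Of all genes, 15.6% did not overlap in that comparison. Igfals was also lower in MetR_CE (log2 fold change -1.34, SE 0.29, adjusted p = 0.000622). The cold change of Igfals in iBAT was below that in liver by 1.39 (SE 0.31, adjusted p = 0.000468), and below those in iWAT and eWAT by 1.52 and 1.91 (adjusted p = 0.000205 and 2.97e-05), all 3 also with the mouse as a block. In iWAT, Igfals was called in MetR_CE (log2 fold change -0.72, SE 0.18, adjusted p = 0.00268), at 19.3 to 26.5 CPM (median 24.3) within the wide Ctrl_RT range of 16.7 to 59.4 CPM.

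The eWAT Ctrl_RT libraries held 31.8, 41.4, 48.8 and 59.4 CPM of Igfals, and MetR_CE held 14.8 to 31.6 CPM (median 23.9), all 7 below the lowest of the 4 (log2 fold change -0.93, SE 0.21, adjusted p = 0.0148, with 4.26% of all genes not overlapping). This call was lost without Ctrl_RT replicate 1 (adjusted p = 0.0678) or replicate 7 (adjusted p = 0.0773) and with the left-out libraries restored (log2 fold change -0.65, adjusted p = 0.0536). Against Ctrl_CE, at 34.6 to 81.2 CPM (median 53.1) with every library above the highest MetR_CE library (3.63% of all genes did not overlap), the fall in MetR_CE kept its call without each Ctrl_RT library in turn (log2 fold change -1.13, SE 0.18, adjusted p = 0.000491). Since Igfals is a hepatocyte gene, hepatocyte RNA in the fat libraries was measured beside it with 5 markers. Apoa1, Ttr and Serpina1c stayed at or below 5.82 CPM in iBAT, 1.15 in iWAT and 17.8 in eWAT. The albumin gene Alb reached 38.2, 96.2 and 145.5 CPM in these depots, and Cyp2e1 reached 112.7, 2579 and 6699 CPM. Igfbp2, higher than Igfals in liver, stayed at 0.391 CPM or less in iBAT and iWAT. In the Ctrl_RT libraries of eWAT it held 2.00 to 6.48 CPM on the scale of all libraries together. In eWAT, Cyp2e1 had a median of 4429 CPM in Ctrl_RT and 545 CPM in MetR_CE. Alb went the other way there, from a median of 7.88 CPM in Ctrl_RT to 27.5 in MetR_CE, and within groups of eWAT Igfals correlated with summed markers of ciliated epithelium at r = -0.69 over 24 libraries. The part of hepatocyte RNA and of ciliated cells in the Igfals values of the fat depots was not tested.

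Igfbp3, the main carrier of IGF1 in blood, rose in at least 1 comparison of every tissue. In iBAT it was at 16.04 to 26.2 CPM (median 20.7) in Ctrl_RT and 17.3 to 26.4 CPM (median 21.6) in MetR_RT, against 41.9 to 88.9 CPM (median 56.6) in Ctrl_CE and 40.03 to 85.9 CPM (median 60.4) in MetR_CE. Every library from the cold lay above every library from 22 °C (of all genes 15.6% did not overlap on the control diet and 11.8% on the MetR diet). Cold thus raised Igfbp3 on the control diet (log2 fold change 1.53, SE 0.17, adjusted p = 2.43e-08) and on the MetR diet (log2 fold change 1.56, SE 0.16, adjusted p = 1.51e-08). The diet by itself did not move it past the threshold (log2 fold change 0.08, SE 0.16, adjusted p = 0.846). In iWAT, Igfbp3 was at 16.9 to 35.8 CPM (median 23.2) in Ctrl_RT, 17.7 to 70.98 CPM (median 23.8) in Ctrl_CE, 23.8 to 49.7 CPM (median 33.1) in MetR_RT and 32.5 to 93.7 CPM (median 56.4) in MetR_CE. It was called in MetR_CE only (log2 fold change 1.27, SE 0.27, adjusted p = 0.000506), whereas cold alone (log2 fold change 0.35, SE 0.26, adjusted p = 0.346) left 6 of 7 libraries at 39.6 CPM or less. The cold change in iWAT was below that in iBAT by 1.199 (SE 0.31, adjusted p = 0.00332), also with the mouse as a block.

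The 4 Ctrl_RT libraries of eWAT held 16.1, 17.6, 18.4 and 28.8 CPM of Igfbp3, against 22.9 to 44.4 CPM (median 30.6) in Ctrl_CE (log2 fold change 0.73, SE 0.20, adjusted p = 0.0351). On the MetR diet the libraries held 27.1 to 48.8 CPM (median 40.1) in MetR_RT (log2 fold change 0.96, SE 0.21, adjusted p = 0.0565) and 27.6 to 49.8 CPM (median 40.1) in MetR_CE (log2 fold change 0.98, SE 0.20, adjusted p = 0.0091). All groups on the diet or in the cold had medians above the highest Ctrl_RT library, which overlapped them at their low ends. The Ctrl_CE call was lost without Ctrl_RT replicate 1 (adjusted p = 0.126), 6 (0.106) or 7 (0.0995), and when only the 2 groups were fitted (0.104), while the MetR_CE call was kept without each of the 4. In liver Igfbp3 was at 6.13 to 21.4 CPM (median 11.95) in Ctrl_RT and 13.4 to 27.4 CPM (median 21.8) in Ctrl_CE, called higher (log2 fold change 0.71, SE 0.19, adjusted p = 0.00454) with overlapping ranges. Hepatic stellate cell markers moved with it: 4 of 5 were higher in Ctrl_CE, their sum went from 87.99 to 221 CPM in Ctrl_RT to 197 to 302 CPM in Ctrl_CE, and within groups the sum correlated with Igfbp3 at r = 0.687 over 28 libraries. The part of these cells in the Igfbp3 value was not tested. The MetR_CE rise in iBAT exceeded that in liver by 1.26 (SE 0.31, adjusted p = 0.00154; also with the mouse as a block), and that in iWAT by 0.91 (SE 0.31, adjusted p = 0.0238; with the block adjusted p = 0.108).

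**Figure D2:**
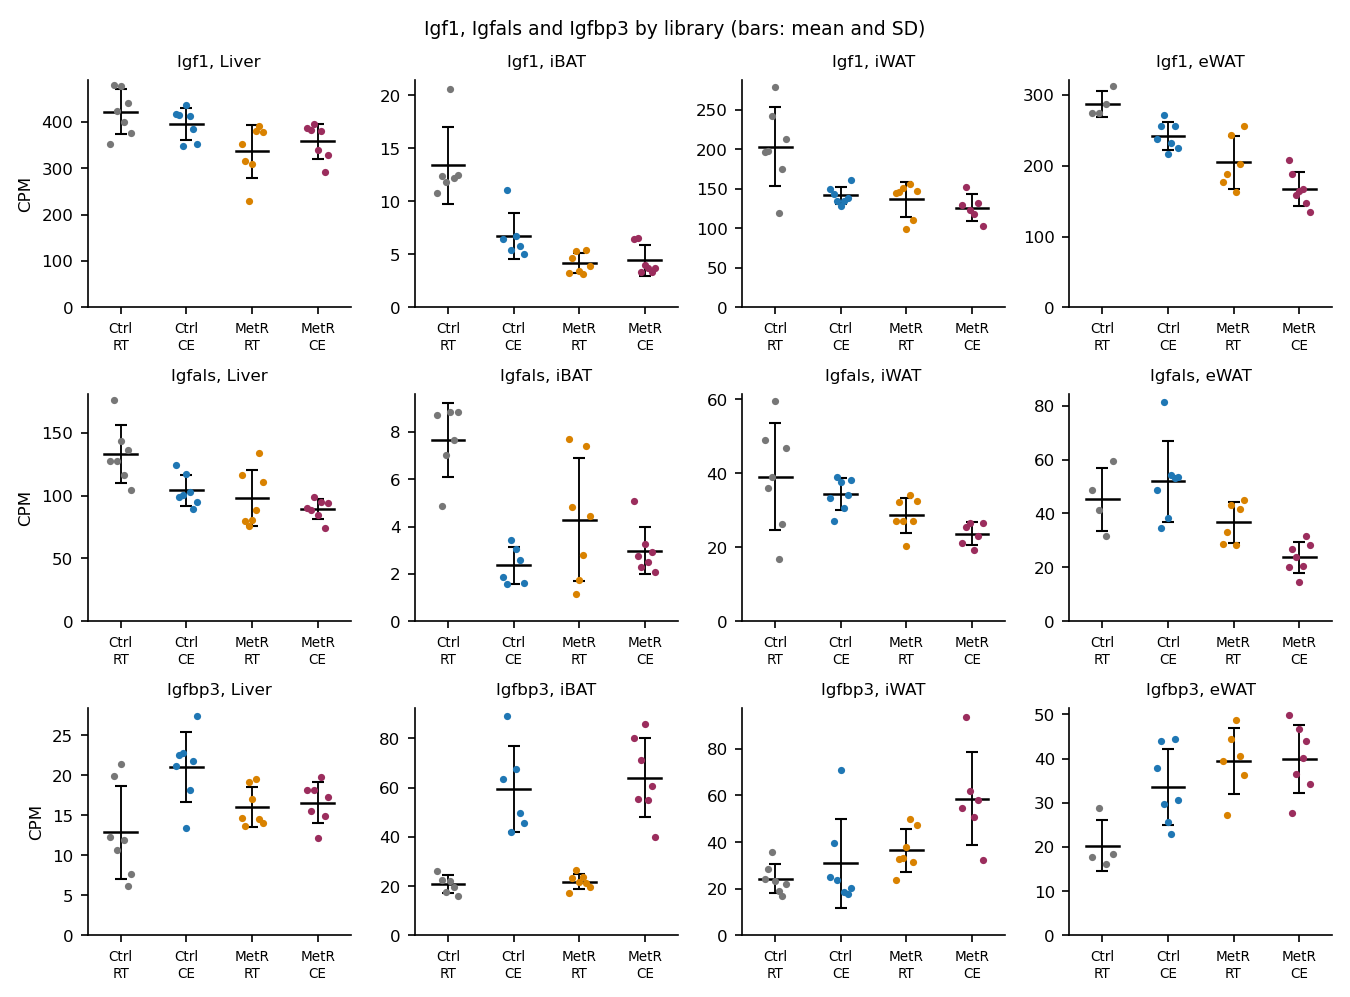
CPM of Igf1, Igfals and Igfbp3 in each library of the 4 tissues, with bars at the mean and 1 SD of each group. In iBAT, Igf1 and Igfals go down while Igfbp3 goes up with cold, and in liver the 4 groups of Igf1 overlap.

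Igfbp1, an insulin-repressed hepatic gene, varied widely among mice. Ctrl_RT liver held 12.6 to 153 CPM (median 73.2) and Ctrl_CE liver 14.9 to 1639 CPM (median 166), with both groups spanning the low range and 1 Ctrl_CE library, replicate 4, at 1639 CPM against 331 in the next. The called rise in Ctrl_CE (log2 fold change 2.25, SE 0.74, adjusted p = 0.0218) fell to 0.88 on the log2 scale without that library (adjusted p = 0.306), and was not called when only the 2 groups were fitted (adjusted p = 0.0649). MetR_RT, at 60.5 to 377 CPM (median 105) (log2 fold change 1.18, SE 0.72, adjusted p = 0.293), and MetR_CE, at 50.9 to 275.5 CPM (median 120.3) (log2 fold change 0.92, SE 0.72, adjusted p = 0.37), were not called, and their lowest libraries lay above the lowest 3 of Ctrl_RT. Of 10 insulin and FOXO1 targets of liver, no larger a share was called than of all genes (11.9% in Ctrl_CE and 13.5% in MetR_CE): 1 in Ctrl_CE (Foxo3, log2 fold change 0.62, SE 0.10, adjusted p = 2.07e-05) and 1 in MetR_CE (Pck1, 0.73, SE 0.26, adjusted p = 0.0318), with list medians of 0.275 and 0.239 against -0.0108 and -0.0439 over all genes. In MetR_RT edgeR called 0 of them, with 3 at an unadjusted p under 0.05. In eWAT, Igfbp1 reached 4.41 CPM, and within groups it correlated with the summed markers of ciliated epithelium at r = 0.841 over 24 libraries. That is a description of single libraries, since 1 library carried the Ctrl_RT level.

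Igfbp2, the next most abundant hepatic binding protein after Igfbp4, gave 268.02 to 657 CPM (median 357) in Ctrl_RT, 191 to 380.4 CPM (median 262.2) in Ctrl_CE, 312 to 696 CPM (median 448) in MetR_RT and 278.1 to 475 CPM (median 411) in MetR_CE. The Ctrl_CE libraries sat lowest and the MetR_RT libraries highest, with overlap throughout. Neither the cold shift (log2 fold change -0.53, SE 0.19, adjusted p = 0.0356) nor the diet's effect in the cold (log2 fold change 0.58, SE 0.19, adjusted p = 0.0416) reached 1.5-fold. In eWAT, Igfbp2 was low, with 2.59, 3.88, 7.41 and 8.57 CPM in Ctrl_RT and 0.866 to 6.07 CPM (median 2.15) in MetR_CE (log2 fold change -1.11, SE 0.41, adjusted p = 0.169). In iBAT and iWAT its counts ran from 0 to 9 in any library, and although MetR_RT of iWAT passed the call rule, no fold is given at that depth.

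Socs2, which damps growth hormone signaling and is itself induced by it, was lower in liver and iWAT. In liver it was at 2.58 to 80.3 CPM (median 31.1) in Ctrl_RT, 3.03 to 18.3 CPM (median 13.5) in Ctrl_CE, 4.27 to 36.01 CPM (median 22.9) in MetR_RT and 6.89 to 20.7 CPM (median 8.49) in MetR_CE. The Ctrl_RT libraries covered the other groups, with 1 library at 80.3 CPM and 1 at 2.58. Socs2 was called lower in Ctrl_CE (log2 fold change -1.56, SE 0.49, adjusted p = 0.0157) and in MetR_CE (log2 fold change -1.56, SE 0.49, adjusted p = 0.0148). Without Ctrl_RT replicate 1, the library at 80.3 CPM, the values became -1.15 (adjusted p = 0.0753) and -1.15 (adjusted p = 0.0729). In iWAT the 3 other groups overlapped each other: 9.27 to 14.7 CPM (median 11.5) in Ctrl_CE, 7.32 to 15.6 CPM (median 11.6) in MetR_RT and 8.87 to 12.9 CPM (median 11.9) in MetR_CE, against 9.22 to 32.2 CPM (median 17.7) in Ctrl_RT. The Ctrl_RT range reached down into all of them, while its median lay above each of their highest libraries. All 3 were called lower (log2 fold change -0.81, SE 0.19, adjusted p = 0.00198; log2 fold change -0.84, SE 0.19, adjusted p = 0.00216; log2 fold change -0.86, SE 0.20, adjusted p = 0.00121). In iBAT and eWAT no comparison of Socs2 was called, with the MetR_RT values at -0.53 and -0.71 (adjusted p = 0.0722 and 0.213). The cold change in iBAT exceeded that in liver by 1.42 (SE 0.48, adjusted p = 0.027), which did not pass with the mouse as a block (adjusted p = 0.239).

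**Figure D3:**
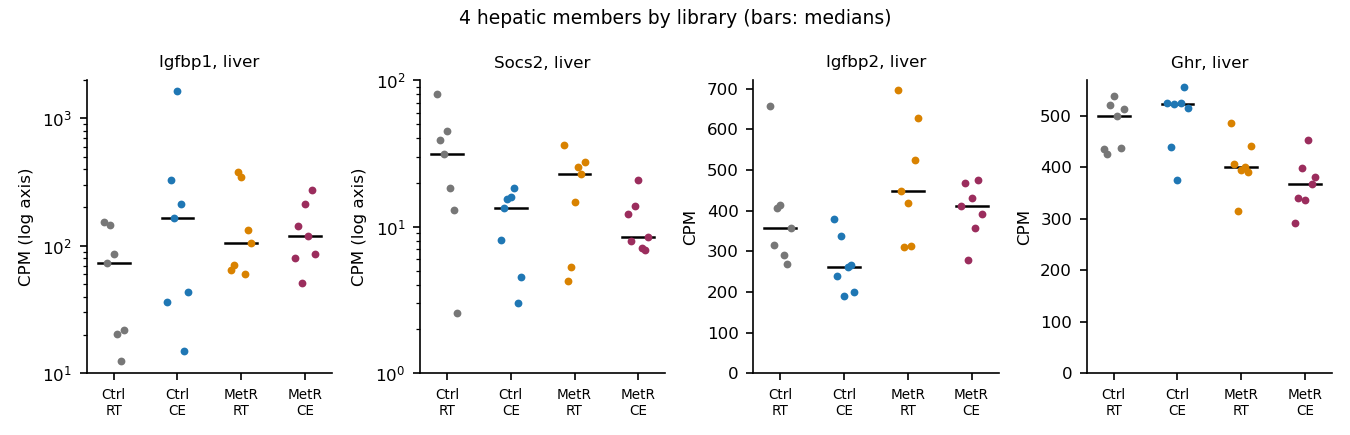
CPM of Igfbp1, Socs2, Igfbp2 and Ghr in each liver library, with bars at the group medians and log axes for Igfbp1 and Socs2. The Ctrl_CE library of Igfbp1 at 1639 CPM stands apart, and the Ctrl_RT libraries of Socs2 run from 2.58 to 80.3 CPM.

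Igfbp4, a binding protein that holds IGF1 locally until proteases cleave it, was lower on the MetR diet in brown fat. In iBAT it was at 28.4 to 50.8 CPM (median 37.9) in Ctrl_RT and 28.4 to 43.3 CPM (median 32.2) in Ctrl_CE, against 15.5 to 22.9 CPM (median 20.3) in MetR_RT and 15.3 to 28.6 CPM (median 20.3) in MetR_CE. Libraries fell by diet rather than temperature, with MetR_RT below every Ctrl library and only the highest MetR_CE library reaching the lowest of them. Between MetR_RT and Ctrl_RT, 2.78% of all genes did not overlap. The diet lowered Igfbp4 at 22 °C (log2 fold change -0.93, SE 0.13, adjusted p = 5.16e-05) and in the cold (log2 fold change -0.68, SE 0.13, adjusted p = 0.00237), while cold on the control diet did not move it past the threshold (log2 fold change -0.14, SE 0.13, adjusted p = 0.467). With the 3 disputed iBAT libraries placed by their treatment tag, the diet effect in the cold was not called (log2 fold change -0.65, adjusted p = 0.12). In liver, where Igfbp4 was at 2166 to 2469 CPM (median 2268) in Ctrl_RT and 2282 to 2757 CPM (median 2617) in MetR_CE, the shift was small (log2 fold change 0.19, SE 0.07, adjusted p = 0.0278). In iWAT and eWAT no comparison of Igfbp4 was called, and its MetR_RT values were -0.46 (adjusted p = 0.0242) and -0.60 (adjusted p = 0.334). The MetR_RT change in iBAT lay below that in liver by 0.90 (SE 0.20, adjusted p = 0.00188; with the mouse as a block adjusted p = 0.217) and the MetR_CE change by 1.03 (SE 0.20, adjusted p = 5.37e-05; with the block 0.0602).

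Igfbp5 and Igfbp6, which bind IGF2 as well as IGF1 and are made by stromal cells, fell in fat, Igfbp5 in all 3 depots and Igfbp6 in iBAT and iWAT. In iBAT, Igfbp5 was at 69.1 to 95.0 CPM (median 82.8) in Ctrl_RT, 47.4 to 90.9 CPM (median 67.2) in Ctrl_CE, 45.7 to 69.2 CPM (median 54.9) in MetR_RT and 36.2 to 53.8 CPM (median 46.3) in MetR_CE. All MetR_CE libraries lay below the lowest Ctrl_RT library (log2 fold change -0.89, SE 0.13, adjusted p = 2.01e-06), where 15.5% of all genes did not overlap. MetR_RT just reached 1.5-fold (log2 fold change -0.59, SE 0.13, adjusted p = 0.00395), a call that 6 alternatives lost with values of -0.50 to -0.58. In iWAT, Igfbp5 was at 515 to 1180.2 CPM (median 1006) in Ctrl_RT and 177 to 369.9 CPM (median 254.2) in MetR_CE without overlap (log2 fold change -1.78, SE 0.38, adjusted p = 0.000482; 18.6% of all genes did not overlap), and Ctrl_CE and MetR_RT reached from 183 to 1327 CPM between them without a call. The eWAT Ctrl_RT libraries held 208, 283.8, 291.5 and 318 CPM of Igfbp5, and the 7 Ctrl_CE libraries, at 98.9 to 193 CPM (median 175), were all below them (4.29% of all genes did not overlap; log2 fold change -0.78, SE 0.21, adjusted p = 0.0294). This call was lost without Ctrl_RT replicate 1 (adjusted p = 0.0926), 3 (0.0617) or 7 (0.102). In liver, where Igfbp5 is scarce, it went the other way, from 1.95 to 5.03 CPM (median 3.29) in Ctrl_RT to 4.55 to 13.2 CPM (median 7.95) in Ctrl_CE (log2 fold change 1.22, SE 0.36, adjusted p = 0.0108).

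The change of Igfbp5 in each fat depot lay below that in liver by 1.58 to 2.04 on the log2 scale for Ctrl_CE and by 1.69 to 2.71 for MetR_CE (adjusted p from 1.06e-06 to 0.0091), but with the mouse as a block none of these 6 differences passed (adjusted p from 0.176 to 0.584). Igfbp6 was lower in iBAT in all 3 groups. From 10.5 to 23.6 CPM (median 13.5) in Ctrl_RT it went to 4.91 to 10.8 CPM (median 6.97) in Ctrl_CE (log2 fold change -0.94, SE 0.26, adjusted p = 0.0055). It was at 5.32 to 7.82 CPM (median 6.25) in MetR_RT (log2 fold change -1.19, SE 0.25, adjusted p = 0.00374) and 3.45 to 15.1 CPM (median 4.77) in MetR_CE (log2 fold change -1.08, SE 0.25, adjusted p = 0.00114). Only MetR_RT stayed clear of the Ctrl_RT range (2.78% of all genes did not overlap there). In iWAT, Igfbp6 was at 195 to 359 CPM (median 317) in Ctrl_RT and 63.8 to 253.7 CPM (median 95.8) in Ctrl_CE (log2 fold change -1.34, SE 0.32, adjusted p = 0.00232). It stood at 66.9 to 286.2 CPM (median 114) in MetR_RT (log2 fold change -0.92, SE 0.32, adjusted p = 0.0392) and 49.6 to 134 CPM (median 66.3) in MetR_CE (log2 fold change -1.91, SE 0.35, adjusted p = 8.23e-05). The MetR_CE libraries were all below the Ctrl_RT libraries (18.6% of all genes did not overlap), and single Ctrl_CE and MetR_RT libraries reached into the Ctrl_RT range. In eWAT no Igfbp6 comparison was called (log2 fold change -0.85, SE 0.34, adjusted p = 0.206 for MetR_CE), and in liver its libraries held 0 to 2.76 CPM.

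**Figure D4:**
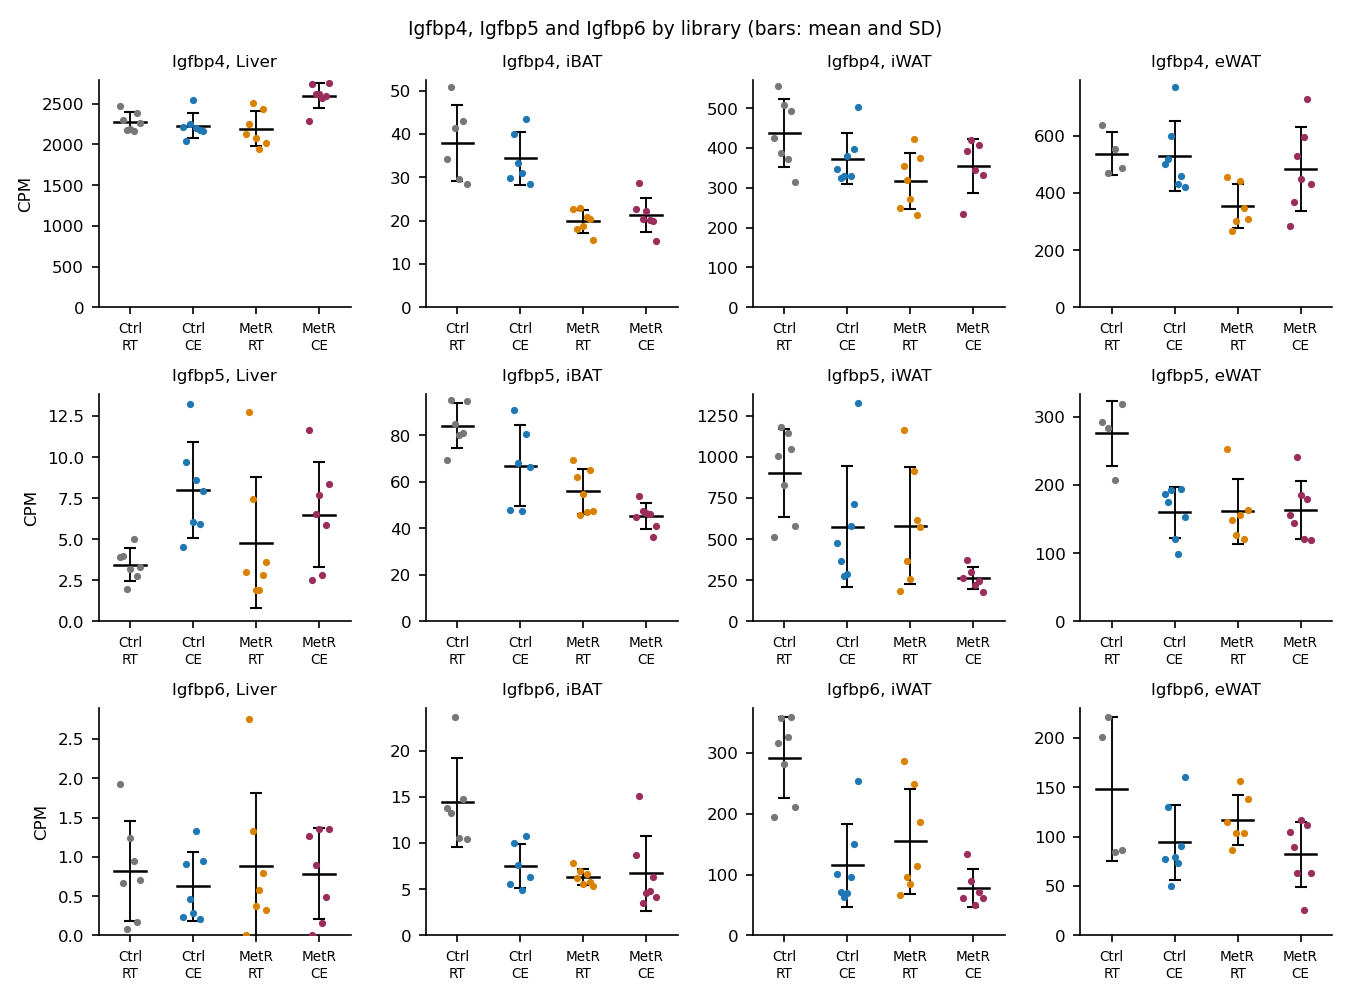
CPM of Igfbp4, Igfbp5 and Igfbp6 in each library of the 4 tissues, with bars at the mean and 1 SD. In iBAT, Igfbp4 separates by diet, and in iWAT the MetR_CE libraries of Igfbp5 and Igfbp6 lie below those of Ctrl_RT.

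Stromal markers moved with these genes. Of 6 markers of adipose stromal and progenitor cells, 4, 3 and 6 were lower in iWAT in Ctrl_CE, MetR_RT and MetR_CE (of all genes 9.94%, 7.36% and 14.4%), and their summed level went from a median of 6676 CPM at Ctrl_RT to 2032 with cold, 1373 with the MetR diet and 964 with both. In iBAT 2, 3 and 5 of the 6 were lower (of all genes 9.73%, 1.97% and 10.3%), with sums of 204 to 459 CPM at Ctrl_RT, 148 to 293.7 with cold, 110.5 to 165 with the diet and 99.7 to 173 with both. In eWAT 1 was lower in MetR_CE, and edgeR called 0 in Ctrl_CE and 0 in MetR_RT, with 1 at an unadjusted p under 0.05 in each. Within groups of iWAT, Igfbp5 and Igfbp6 correlated with each other at r = 0.94 and with the stromal sum at 0.815 and 0.866 over 27 libraries, and in iBAT the sum correlated with Igfbp6 at 0.622 over 26. Macrophage markers moved as well in iWAT, from a summed median of 178 CPM to 57.1 with cold, 39.8 with the diet and 24.2 with both, while all 5 brown adipocyte markers were higher in each of the 3 groups. In liver, all 5 markers of liver endothelium and 4 of 5 stellate cell markers were higher in Ctrl_CE and in MetR_CE (of all genes 7.28% and 6.25%). Within groups of liver, Igfbp5 correlated with summed mesothelial markers at r = 0.858 over 28 libraries. These are descriptions over libraries that share depth and dissection, and the part of each cell type in the changes of Igfbp3, Igfbp5 and Igfbp6 was not tested.

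A further 12 genes of the IGF system were its ligand, receptors, substrates, proteases and other binders. All pathway lists were chosen with earlier results of these data known, so their counts are descriptions. In liver, 1, 0 and 2 of 11 tested were called in Ctrl_CE, MetR_RT and MetR_CE, beside 11.9%, 6.91% and 13.5% of all genes. Igfbp7 was higher in Ctrl_CE (log2 fold change 0.76, SE 0.10, adjusted p = 1.65e-06), edgeR called 0 in MetR_RT (4 at an unadjusted p under 0.05), and the receptor gene Igf1r (0.64, SE 0.17, adjusted p = 0.00316) and its substrate Irs1 (0.60, SE 0.13, adjusted p = 0.000623) were higher in MetR_CE. The list medians of 0.512, 0.196 and 0.578 stood above those of all genes at -0.0108, 0.00451 and -0.0439. In 2 of the fat depots the protease gene Htra1 was lower: in iBAT by 1.08 in Ctrl_CE, 0.81 in MetR_RT and 1.63 in MetR_CE, and in iWAT by 0.60, 0.69 and 1.13 on the log2 scale. In eWAT Htra1 was not called against Ctrl_RT. Stc1, whose product inhibits the IGFBP-cleaving pappalysins, was higher in Ctrl_CE in iBAT (1.78, SE 0.23, adjusted p = 2.88e-07), iWAT (0.80, SE 0.29, adjusted p = 0.0339) and eWAT (1.005, SE 0.25, adjusted p = 0.0198), and in MetR_CE in all 3 depots. Its relative Stc2 was higher in MetR_CE in iWAT (1.29, SE 0.29) and eWAT (0.67, SE 0.18). The counts of this list for Ctrl_CE, MetR_RT and MetR_CE were 2, 1 and 3 of 12 in iBAT (all genes 14.7%, 2.5% and 14.7%), 2, 1 and 6 in iWAT (15.9%, 11.6% and 22.4%) and 1, 0 and 2 in eWAT (2.42%, 0.115% and 1.3%), where 1 had an unadjusted p under 0.05 for MetR_RT.

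Of 13 genes of growth hormone signaling, liver called 1 in Ctrl_CE, 5 in MetR_RT and 3 in MetR_CE, beside 11.9%, 6.91% and 13.5% of all genes. Prlr, the prolactin receptor gene, was higher in all 3 (log2 fold change 0.78, 1.11 and 1.12, SE 0.25 each), while Onecut1, a hepatic transcription factor gene, was lower in MetR_RT (-1.47, SE 0.49, adjusted p = 0.034). Stat3 and the feedback inhibitor Socs3 were lower in MetR_RT (-0.81 and -1.24) and MetR_CE (-0.70 and -1.70). In iBAT, Stat5a was lower in Ctrl_CE (-0.65, SE 0.07, adjusted p = 5.05e-09) and MetR_CE (-0.75, SE 0.06, adjusted p = 2.11e-10). In iWAT, Socs3 and Socs1 were lower in each group, Socs3 by 1.504, 1.26 and 2.14 on the log2 scale. The list held 1, 1 and 5 called genes of 12 tested in iBAT (all genes 14.7%, 2.5% and 14.7%) and 2, 3 and 5 in iWAT (15.9%, 11.6% and 22.4%). In eWAT edgeR called 0 in each of the 3 comparisons, with 2, 5 and 6 at an unadjusted p under 0.05.

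Several liver genes that depend on the male pattern of growth hormone were lower in each of the 3 groups. The lists of this paragraph were chosen with earlier results of these data known, so their counts are descriptions and not separate evidence. Of 11 such genes, 6 were lower in Ctrl_CE, 7 in MetR_RT and 9 in MetR_CE (of all genes 4.64%, 4.02% and 7.22% were called lower) and 0 were higher, with list medians of -1.1, -1.53 and -1.82 on the log2 scale. Selenbp2 fell in all 3 (-4.28, -4.56 and -5.45, SE 0.52 to 0.56), and the urinary pheromone carrier gene Mup20 fell in MetR_RT (-2.26, SE 0.31) and MetR_CE (-2.45, SE 0.32). Of 10 female-biased genes tested, 4, 5 and 7 were higher (of all genes 7.28%, 2.88% and 6.25%), with medians of 2.12, 2.78 and 3.73, among them Acot3 (4.89, 4.15 and 6.19) and the steroid hydroxylase gene Cyp17a1 (1.58, 1.84 and 3.33). Hepatic ATF4 targets, the genes of the amino acid response, were higher in 1, 7 and 6 of 10, beside those same shares of all genes, led by Vldlr (1.56, 3.36 and 3.14). Igf1 and Igfals values of liver stood at -0.09, -0.33 and -0.24 and at -0.35, -0.44 and -0.58 in the same comparisons.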

How the data were processed

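Polyadenylated RNA libraries (NEBNext Ultra II, paired-end, Illumina sequencing) were deposited by the authors as raw whole-number gene counts in 3 tables (liver, eWAT, and iBAT with iWAT). The submitters' processing notes name STAR 2.7.9a, featureCounts 2.0.3, Salmon 1.9.0, MultiQC 1.19 and DESeq2 1.46.0 without their roles, and the strand setting of the count step is not given in the sources used here. Of 56884 gene rows, 51948 were matched to GENCODE M21 symbols.

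The 10 genes were chosen by name, and the pathway lists were chosen with earlier results of these data known. Libraries were grouped by title, and samples within a group are separate mice. The study left libraries out after inspecting principal components of expression, without naming them. They were identified here as the subset (of 8 tried for iBAT and 246 for eWAT) whose mean normalised counts lay closest to the mean normalised counts in its source data, so the choice of libraries follows the study. Genes with at least 10 counts in total in a tissue were tested with edgeR 4.0.16 (R 4.3.3, limma 3.58.1), using TMM factors, 1 quasi-likelihood fit of the 4 groups per tissue, and Benjamini-Hochberg adjustment over all genes of a contrast. Tissue levels, and differences of a change between tissues, came from a joint fit of all 105 libraries in which differences needed only an adjusted p under 0.05. Standard errors are the log2 fold change divided by the square root of F, and log2 CPM used a prior count of 2. The precision of a value is set by the depth given in the report and the spread between mice.

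All 10 genes were named in every tissue. From each pathway list, up to 4 called genes with the largest absolute log2 fold change and a mean of at least 1 CPM were named. The genes most like Igf1, Igfbp1, Igfbp2 and Socs2 in liver, and Igf1 and Igfbp3 in iWAT, were the 3 with the highest Pearson correlation among genes with a mean of at least 10 CPM. Alternatives were RLE size factors, no filter, filterByExpr, DESeq2 1.42.0 with and without apeglm 1.24.0, only the groups compared, the replicate number as a block, all libraries, other iBAT groupings, leaving out a library, and limma voom with the mouse as a block across tissues. The fits were tested on simulated data. Motifs were searched in RefSeq promoter windows (GRCm38.p6).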

Additional observations from a re-analysis of the deposited data

Results flagged for a closer look

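In 19 of 144 groups of 4 to 7 libraries (13.2%), 1 library lay apart from the rest of its group by Dixon's criterion. For normally distributed values chance meets it in about 1 group in 20. It was applied to CPM without a log scale, and groups of different genes share libraries, so the 13.2% is a description. In liver Ctrl_CE, replicate 4 was highest for Igfbp1 (1639 CPM, the next library 331) and for Igfbp4 (2543, next 2245). Replicate 1 of liver Ctrl_RT was highest for Igfbp2 (657 CPM, next 415), and replicate 1 of liver MetR_CE was lowest for Igfbp4 (2282, next 2571).

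In iBAT the libraries that lay apart were Ctrl_RT replicate 4 for Igf1 (20.6 CPM, next 12.4), Ctrl_CE replicate 2 for Igf1 (11.02, next 6.69), MetR_CE replicate 1 for Igfals (5.09, next 3.28) and Ctrl_RT replicate 3 for Igfbp6 (23.6, next 14.8). Socs2 had MetR_RT replicate 6 at 8.25 CPM (next 4.73) and Ctrl_CE replicate 4 at 11.999 (next 6.60). In iWAT Ctrl_CE, replicate 4 was highest for Igfbp3 (70.98 CPM, next 39.6) and Ghr (1132, next 809), and replicate 7 for Igfbp4 (504, next 397) and Igfbp5 (1327, next 716). In eWAT they were Ctrl_CE replicate 3 for Igfals (81.2 CPM, next 54.1), MetR_RT replicate 1 for Igfbp5 (252.5, next 164) and, for Igfbp1, Ctrl_RT replicate 6 (3.43, next 0.0341), MetR_RT replicate 5 (0.655, next 0.0736) and MetR_CE replicate 4 (3.20, next 1.001).

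In the joint fit, 31 changes against Ctrl_RT differed between 2 tissues in edgeR's quasi-likelihood test (log2 differences, first tissue minus second). For Igf1, eWAT minus iBAT was 0.75 in Ctrl_CE, 1.198 in MetR_RT and 0.79 in MetR_CE. The Igf1 changes of iBAT minus liver were -0.93, -1.38 and -1.35 in that order, and those of iWAT minus iBAT were 1.10 in MetR_RT and 0.89 in MetR_CE. For Igfals in Ctrl_CE, eWAT minus iBAT was 1.91, iBAT minus liver -1.39 and iWAT minus iBAT 1.52.

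For Igfbp2 in MetR_CE, eWAT minus liver was -1.16. The Igfbp3 change in Ctrl_CE was -1.199 for iWAT minus iBAT, and that in MetR_CE was 1.26 for iBAT minus liver and 0.91 for iWAT minus liver. For Igfbp4 in MetR_CE, eWAT minus iBAT was 0.67 and iBAT minus liver -1.03, and in MetR_RT iBAT minus liver was -0.90. The Igfbp5 changes minus that of liver were -2.04 for eWAT, -1.58 for iBAT and -1.90 for iWAT in Ctrl_CE, and -1.69, -1.82 and -2.71 in MetR_CE.

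Ghr in Ctrl_CE gave -0.64 for iBAT minus liver and 0.45 for iWAT minus iBAT. In MetR_CE, the Ghr change minus that of iBAT was 0.48 for eWAT and 0.51 for iWAT, and minus that of liver it was 0.54 for eWAT and 0.57 for iWAT. Socs2 in Ctrl_CE gave 1.42 for iBAT minus liver.

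With the mouse as a block in limma-voom, 20 of the 31 did not pass. They were the 4 of Igf1 between iBAT and eWAT or iWAT other than iWAT in MetR_RT (adjusted p from 0.052 to 0.154), that of Igfbp2 (0.186), Igfbp3 of iWAT against liver (0.108), the 6 of Igfbp5 (0.176 to 0.584) and that of Socs2 (0.239). For Igfbp4 the block gave an adjusted p of 0.391 for eWAT minus iBAT, and of 0.0602 in MetR_CE and 0.217 in MetR_RT for iBAT minus liver. For Ghr it gave 0.0633 for iBAT minus liver and 0.180 for iWAT minus iBAT in Ctrl_CE, and 0.0895 for eWAT and 0.0599 for iWAT minus iBAT in MetR_CE.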

How the results depend on the processing

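Of 38 called changes within tissues, 388 recomputed values kept direction and call and 23 (of 9 changes) lost the call, while 22 changes not called gained it in 56 values. None reversed. Liver calls against Ctrl_RT numbered 5, and 3 to 7 with 1 library left out (3 without Ctrl_RT replicate 1, 7 without Ctrl_RT replicate 5), where the libraries left out were chosen after seeing the data. The liver count for the interaction and within a diet or temperature was 0, 1 with filterByExpr or the replicate block, and 0 to 1 with 1 library left out. The like iBAT count of 2 was 4 by DESeq2 and 1 with groups by the tag. That of iWAT was 0, 2 with filterByExpr, 1 with the replicate block, with only the groups compared or with apeglm, and 4 by DESeq2. eWAT calls against Ctrl_RT numbered 5, 8 by DESeq2 with or without apeglm, and 2 to 5 with 1 Ctrl_RT library left out (2 without replicate 1 or 7). The eWAT count within a diet or temperature was 1, 2 with RLE, filterByExpr or the replicate block, 5 by DESeq2, 3 with apeglm, and 1 to 2 with 1 library left out.

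Tissue differences at Ctrl_RT numbered 46, and 45 by voom with the mouse as a block. The 31 differences of a change fell to 17 there, 11 of them shared: the 3 of Igf1 between iBAT and liver, Igf1 between iWAT and iBAT in MetR_RT, the 3 of Igfals, Igfbp3 between iWAT and iBAT in Ctrl_CE and between iBAT and liver in MetR_CE, and Ghr of eWAT and iWAT against liver in MetR_CE. The voom fit differed in the test as well as in the block, with a consensus correlation between libraries of 1 mouse of 0.0328. Which of these changed the calls was not tested.

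Replicate numbers did not pair the samples: same-numbered libraries had median correlations of deviations from -0.00537 (liver) to 0.0842 (eWAT), with single pairs from -0.55 (iBAT) to 0.619 (eWAT). The 60 results compared were those called in at least 1 setting. With the number as a block, 36 of the 38 called ones kept their call and 2 lost it. Of those not called, 19 stayed so and 3 gained a call. Depth limited Igfbp1 and Igfbp2 in iBAT and iWAT, where most libraries were at the floor of a few counts.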

Other observations

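In liver the gene whose log2 CPM followed Igfbp1 most closely over the 28 libraries was Irs2, an insulin receptor substrate gene (Pearson r = 0.91 among 8017 genes), followed by Irf2bp2 (0.78) and Ip6k2 (0.77). Igf1 was most like Tgm1 (0.815), its own circulating partner gene Igfals (0.76) and Pdss2 (0.742). Igfbp2 was most like Hsd17b6 (0.841), Mcee (0.812) and Mettl7a1 (0.807), and Socs2 was most like Zfp598 (0.843), Wdr45b (0.769) and Gtpbp4 (0.735). In iWAT, among 9280 genes in 27 libraries, Igf1 was most like the complement gene C2 (0.872), Cmtm6 (0.839) and Galnt10 (0.835), and Igfbp3 was most like Klf9 (0.819), Glud1 (0.781) and Sdc4 (0.769). These values span the groups, and the libraries share dissection and depth. With the group means removed, Igf1 and Igfals correlated at 0.725 in liver and 0.744 in iWAT, but at 0.261 in eWAT and 0.064 in iBAT.

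The tissues came from the same mice. Over 46 pairs of a gene and 2 tissues, deviations from the group means were correlated across mice, with permutation p-values adjusted over the 46. Socs2 in iWAT and eWAT was the only pair to pass 0.05 in Pearson's r (0.742, adjusted permutation p = 0.0271, 23 mice, 0.64 without the 2 mice farthest from the median), and its Spearman's rho of 0.66 did not pass (adjusted permutation p = 0.0975). Of 13482 genes, 2.26% had an r at least as high in that pair of tissues. The next was Igf1 in iBAT and eWAT (0.643, adjusted permutation p = 0.0888).

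The libraries that were left out differed in markers of other cell types. On a plain CPM scale, summed epididymal epithelium markers were 7137 CPM in Ctrl_RT replicate 2 of eWAT against 0.0686 to 4.82 in the Ctrl_RT libraries used, and its Igf1 was 178.3 CPM against 279.1 to 318.8. Ciliated epithelium markers were 361.8 and 355.1 CPM in replicates 4 and 5 against 2.947 to 170.4, with Igf1 at 333.8 and 134.3 CPM. In MetR_RT replicate 7 they were 400.6 CPM against 3.062 to 29.89, with Igf1 at 182 CPM, inside the range of 166.9 to 253.8. One MetR_RT library of eWAT that was used held 985 CPM of epididymal epithelium markers.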
